A study of Mus musculus with 6 samples.

Results

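Complement genes were examined in colon RNA of C57BL/6J mice that had gained much or little weight on a high-fat diet (HFD). The 9 genes were taken by gene symbol from the list *C1qa*, *C1qb*, *C1qc*, *C1s1*, *C1ra*, *C3*, *C4b*, *Cfb* and *Serping1*, and all 9 were found among the 17778 genes listed. RNA-seq was available for 3 obesity-prone (OP) and 3 obesity-resistant (OR) samples, each labelled as wild type, fed the HFD and numbered 1 to 3 within its group. The mice were male, received a diet with 60% fat for 16 weeks and were 21 weeks old at collection, and OP and OR mice came from the 10 with the highest and the 10 with the lowest weight gain among 42 mice on this diet, as described in the methods. The groups are therefore the ends of the weight gain of 1 inbred strain on 1 diet, and no normal-diet colon was analysed here. The labels do not state whether a sample is 1 mouse or a pool. Each is called a mouse below, and the p-values set the difference of the groups against the spread between samples within a group.

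Complement is a set of proteins that coat microbes and damaged cells, release peptides that attract and activate leukocytes, and can form a pore in a membrane. In the classical pathway the recognition protein C1q, built from A, B and C chains, binds antibody or a surface, the proteases C1r and C1s cleave C4 and C2, and the resulting enzyme cleaves C3, while factor B joins cleaved C3 in the alternative pathway that amplifies the reaction. Liver is the main source of most plasma complement, C1q is made mainly by macrophages and dendritic cells, and stromal and epithelial cells of the gut also express several components.

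Expression is given as FPKM (fragments counted per kilobase of a transcript, scaled to the total of mapped fragments), the unit the authors deposited. FPKM is corrected for length, so levels can be set side by side between genes, but it carries no read totals, and the sequencing depth of each mouse and the counting error are unknown. The FPKM values of a mouse summed to between 585350 and 600028. Epithelial markers were high in all 6 mice, with *Epcam* between 934.63 and 1187.94 FPKM, as the colon label calls for. OP mouse 1 stood apart, with the lowest median-of-ratios size factor, 0.803 against 0.983 to 1.11 in the other mice, and the lowest sample weight, 0.332. Log2(FPKM + 1) values of the 13520 genes that reached 0.5 FPKM in 3 or more mice were compared by limma-trend, and all 9 complement genes passed this filter.

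The 3 chains of C1q, the proteases *C1ra* and *C1s1*, the C1 inhibitor *Serping1* and *C4b* were lower in every OP mouse than in any OR mouse, with OR means between 1.80 and 2.21 times the OP means. *C3* was 1.56 times as high in OR mice with overlapping groups, and *Cfb* was at the same level within the spread. All 9 log2 fold changes OP/OR were below 0, as were 70.1% of those of all genes tested, and their median was -0.85 beside -0.10 for all genes. At an unadjusted limma-trend p below 0.05, 7 of the 9 genes (77.8%) were lower and 0 were higher in OP mice, where 3.53% of all genes tested were lower and 0.503% were higher. Values of the groups did not overlap in the same 7 genes (77.8%), against 6.81% of all genes tested that were lower in OP mice without overlap, and 0 of the 9 were higher without overlap (1.63% of all genes). The 9 genes were chosen with earlier results of these data known, so these shares are a description and not a test. At the thresholds used in the study (1.2-fold or more upward, or down to 0.83 or less, with a q-value below 0.2) 0 of the 9 genes were called, where 0.0222% of the genes tested were called lower and 0 higher. The study applied these thresholds with DESeq2, a test on counts, and reported more genes. The calls here come from limma-trend on FPKM and are not the outcome of the study. The q-values of the 9 genes (limma-trend, Benjamini-Hochberg adjustment over all genes) lay between 0.798 and 0.957. In tissue RNA, fewer cells that express a gene and less RNA per cell cannot be told apart, and this holds for every difference below. The count of 7 was 4 without OP mouse 2, when *C1qa*, *C1qc* and *C1s1* no longer passed the unadjusted threshold, and 4 without OR mouse 3, when *C1qc*, *C1ra* and *C1s1* did not. It was 8 without OP mouse 3, when *C3* also passed. A two-sided exact permutation test of the means gave p = 0.1 for each of the 7 genes without overlap, the smallest that 3 mice against 3 allow.

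**Figure D1:**
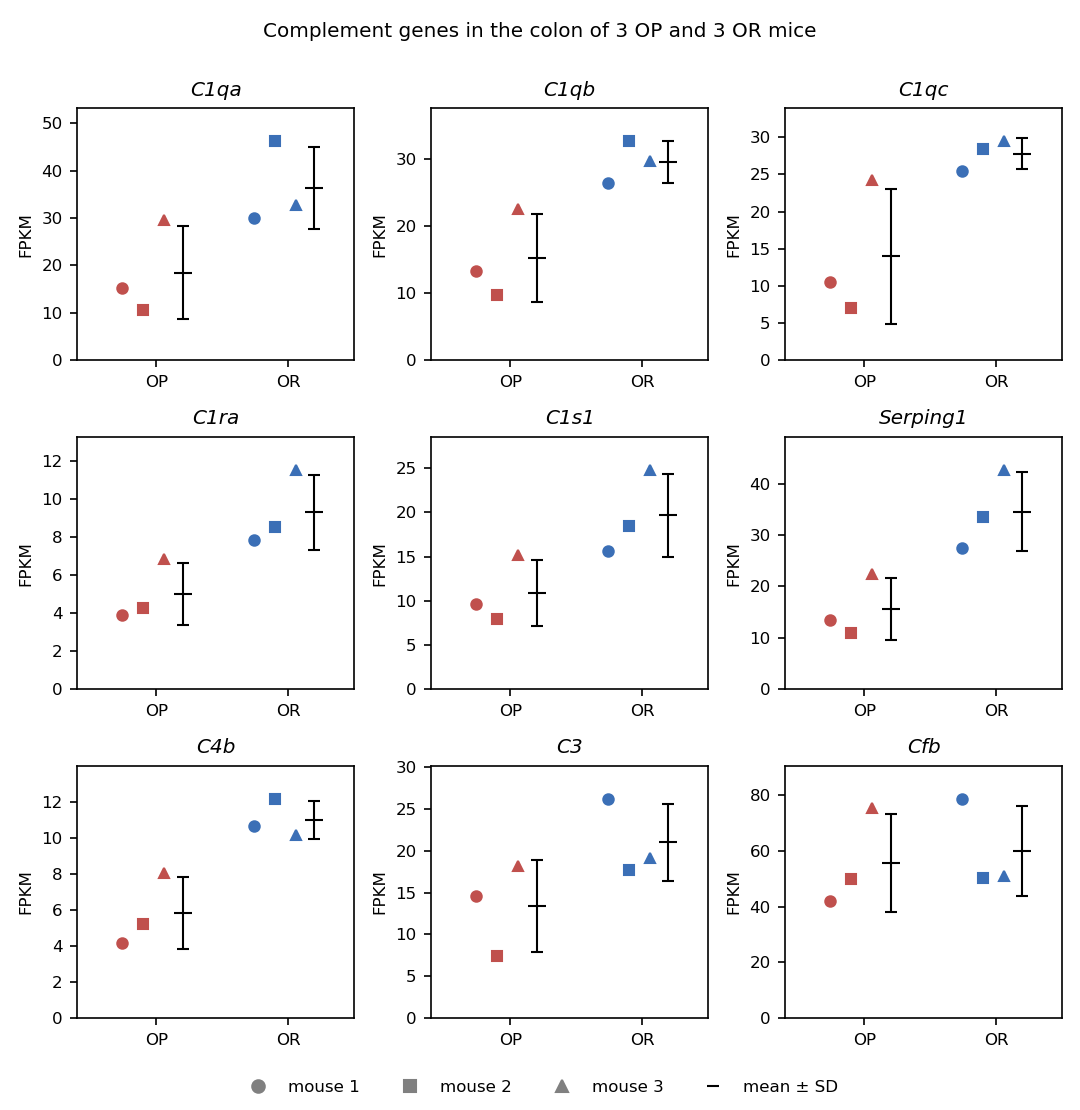
FPKM of the 9 complement genes in each mouse (y axis, FPKM, from 0), with OP mice in red, OR mice in blue, symbols for the mouse number and a bar for the mean ± SD of 3 mice. In 7 of the 9 panels every OP mouse lies below every OR mouse, OP mouse 3 is the highest OP mouse in all 9, and *C3* and *Cfb* overlap.

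The recognition protein was considered first. *C1qa* was 15.28, 10.69 and 29.52 FPKM in OP mice 1, 2 and 3 and 29.93, 46.21 and 32.84 FPKM in OR mice 1, 2 and 3. The groups were separated by little, since OP mouse 3 was just below OR mouse 1. Group means were 18.5 ± 9.82 (SD, n = 3) and 36.3 ± 8.68 FPKM (SD, n = 3), and the log2 fold change was -1.03 (standard error 0.35, q = 0.945, limma-trend). After median-of-ratios scaling *C1qa* was 27.1 in both of these mice and the groups overlapped. That scaling left 6 of the 9 genes without overlap, against 5.44% of all genes tested.

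*C1qb* encodes the B chain. It was 13.36, 9.8 and 22.53 FPKM in the OP mice and 26.43, 32.74 and 29.78 FPKM in the OR mice, so the OR mice lay close together and well above OP mice 1 and 2. For *C1qb* the log2 fold change was -0.99 (standard error 0.28, q = 0.864, limma-trend). *C1qc*, the C chain, was 10.58, 7.08 and 24.27 FPKM in the OP mice and 25.42, 28.46 and 29.48 FPKM in the OR mice. Here OP mouse 3 was again close to the OR mice, and the highest OP value was 3.43 times the lowest, against 1.16 times among OR mice. The log2 fold change of *C1qc* was -1.11 (standard error 0.38, q = 0.945, limma-trend). *C1qb* was the only C1q chain that stayed below the unadjusted threshold whichever of the 6 mice was left out.

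The 3 chains are neighbouring genes, with 0 protein-coding genes between *C1qa* and *C1qc* and 0 between *C1qc* and *C1qb* in the RefSeq table used for gene order. Their transcripts remained in similar proportion within each mouse. The ratio of *C1qa* to *C1qb* was between 1.09 and 1.41 in the 6 mice and that of *C1qc* to *C1qb* between 0.722 and 1.08, and both ratios overlapped between the groups. Summed over the chains, C1q was 39.2, 27.6 and 76.3 FPKM in the OP mice and 81.8, 107 and 92.1 FPKM in the OR mice.

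Stretches of 250 bases directly upstream of the annotated start are shown for *C1qb* and *C1qc*, the C1q genes with an entry in the RefSeq promoter table (build GRCm38.p6, not the build GRCm39 of the authors' gene set), because these neighbouring genes differed together. Of the 9 genes, 5 had an entry, namely *C1qb*, *C1qc*, *C1ra*, *C1s1* and *C3*, while *C1qa*, *C4b*, *Cfb* and *Serping1* were not in the table. Capitals mark matches on either strand to GAGGAA, a core recognised by the myeloid factor PU.1, and to the degenerate NF-kB consensus. The *C1qb* stretch is chr4:136886201-136886450 on the minus strand and the *C1qc* stretch is chr4:136892915-136893164 on the minus strand.
C1qb: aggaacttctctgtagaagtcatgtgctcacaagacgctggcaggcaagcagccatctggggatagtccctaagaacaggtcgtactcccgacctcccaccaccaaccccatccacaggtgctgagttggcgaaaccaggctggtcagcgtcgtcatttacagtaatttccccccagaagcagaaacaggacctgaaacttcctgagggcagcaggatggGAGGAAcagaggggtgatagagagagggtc
C1qc: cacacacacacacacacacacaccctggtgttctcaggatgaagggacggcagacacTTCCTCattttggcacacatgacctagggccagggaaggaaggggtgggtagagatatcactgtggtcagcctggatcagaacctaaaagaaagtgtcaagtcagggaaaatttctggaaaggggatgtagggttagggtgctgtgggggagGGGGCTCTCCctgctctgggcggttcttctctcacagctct
GAGGAA spans positions -30 to -25 relative to the start of *C1qb*, and its reverse complement spans positions -193 to -188 of *C1qc*. An NF-kB match spans positions -41 to -32 of *C1qc*. Among all 32851 upstream windows of this length in the table, 23.3% hold GAGGAA and 3.90% hold the NF-kB consensus, so the first is common. A match describes the letters and is not a site.

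The proteases of the C1 complex followed. *C1ra* encodes C1r, which cleaves and activates C1s. It was 3.9, 4.26 and 6.85 FPKM in the OP mice and 7.82, 8.55 and 11.53 FPKM in the OR mice. The groups did not overlap, and the OR mean was 1.86 times the OP mean. For *C1ra* the log2 fold change was -0.79 (standard error 0.25, q = 0.945, limma-trend). *C1s1*, which encodes the protease that cleaves C4 and C2, was 9.66, 7.97 and 15.13 FPKM in the OP mice and 15.67, 18.5 and 24.8 FPKM in the OR mice. OP mouse 3 and OR mouse 1 were close, and the log2 fold change was -0.81 (standard error 0.26, q = 0.945, limma-trend).

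*C1s1* exceeded *C1ra* in each mouse by a similar factor, between 1.87 and 2.48, and this ratio overlapped between the groups. The genes are direct neighbours. Both have close relatives, and 48% of the 50-base words of the annotated *C1ra* transcripts also occur in *C1rb* and 22.8% of those of *C1s1* in *C1s2* (GENCODE M21), so reads could be divided between them and the levels are uncertain to that extent. The relatives were listed at no more than 0.04 FPKM (*C1rb*) and 0.11 FPKM (*C1s2*) in any mouse.

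The upstream stretches of this neighbouring pair are given for comparison with those of the C1q genes, from the same table, with capitals for TTGCNNAA, a C/EBP motif. The *C1ra* stretch is chr6:124512371-124512620 on the plus strand and the *C1s1* stretch, from the first of its 2 entries, is chr6:124542360-124542609 on the minus strand.
C1ra: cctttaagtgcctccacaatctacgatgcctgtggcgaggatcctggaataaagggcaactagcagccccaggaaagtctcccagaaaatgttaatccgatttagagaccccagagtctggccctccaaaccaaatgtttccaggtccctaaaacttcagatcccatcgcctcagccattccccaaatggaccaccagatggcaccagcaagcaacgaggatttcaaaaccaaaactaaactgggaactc
C1s1: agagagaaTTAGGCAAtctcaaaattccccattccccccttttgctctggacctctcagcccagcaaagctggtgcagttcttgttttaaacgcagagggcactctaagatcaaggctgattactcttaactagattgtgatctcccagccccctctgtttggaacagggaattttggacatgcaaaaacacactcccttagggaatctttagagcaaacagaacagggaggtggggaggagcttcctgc
TTGCNNAA matches *C1s1* on the opposite strand at positions -242 to -235 and does not occur in the *C1ra* stretch. It is also absent from the stretch of the other *C1s1* entry (chr6:124542322-124542571, not printed), so the match depends on the start used. GAGGAA, the NF-kB consensus, the GAS motif TTCNNNGAA and an ISRE-like motif (GAAA, any 2 bases, GAAA) do not occur in any of these stretches. Of all windows, 9.56% hold TTGCNNAA, 7.02% hold TTCNNNGAA and 2.98% hold the ISRE-like motif.

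*Serping1* encodes the C1 inhibitor, a serpin that removes active C1r and C1s from the complex and also restrains plasma kallikrein. It was 13.54, 10.96 and 22.42 FPKM in the OP mice and 27.42, 33.6 and 42.67 FPKM in the OR mice. Every OR mouse was clearly above the highest OP mouse, and the OR mean was 2.21 times the OP mean, the highest ratio of the 9 genes. Its log2 fold change was -1.13 (standard error 0.28, 95% confidence interval -1.78 to -0.48, q = 0.798, limma-trend), which was rank 64 by p among the genes tested. Without any 1 of the 6 mice it lay between -1.41 and -0.92, below the unadjusted threshold each time.

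Set against the proteases it inhibits, *Serping1* was also higher in OR mice. The ratio of *Serping1* to the sum of *C1ra* and *C1s1* was 0.999, 0.896 and 1.02 in OP mice 1 to 3 and 1.17, 1.24 and 1.17 in OR mice 1 to 3. The ranges did not overlap, although both numerator and denominator were lower in OP mice. This ratio was chosen after the values had been seen, as 1 of 15 computed within mice, of which 4 did not overlap, and it was not tested.

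C4 and C3 are the central proteins that become bound to surfaces. *C4b*, which encodes C4, was 4.17, 5.23 and 8.04 FPKM in the OP mice and 10.67, 12.17 and 10.13 FPKM in the OR mice. The gap between the highest OP and the lowest OR mouse was as clear as for *Serping1*, and the OR mice lay within 10.13 to 12.17 FPKM. For *C4b* the log2 fold change was -0.85 (standard error 0.24, q = 0.858, limma-trend), and it stayed below the unadjusted threshold whichever mouse was left out. The related *C4a* was not listed as a row of its own, and 35.2% of the 50-base words of *C4b* also occur in annotated *C4a* transcripts, so any *C4a* reads may be included in these values.

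*C3* was 14.64, 7.43 and 18.22 FPKM in the OP mice and 26.24, 17.66 and 19.11 FPKM in the OR mice. OP mouse 3 was above OR mouse 2, so the groups overlapped, and OP mouse 2 and OR mouse 1 were the extremes. For *C3* the log2 fold change was -0.67 (standard error 0.32, 95% confidence interval -1.41 to 0.07, q = 0.945, limma-trend), which leaves room for a 2-fold difference as well as for none. A two-sided exact permutation test of the *C3* means gave p = 0.2.

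The upstream stretch of *C3* is printed because a C/EBP match, in capitals, spans positions -45 to -38 relative to its start (RefSeq, GRCm38.p6, chr17:57228137-57228386, minus strand).
C3: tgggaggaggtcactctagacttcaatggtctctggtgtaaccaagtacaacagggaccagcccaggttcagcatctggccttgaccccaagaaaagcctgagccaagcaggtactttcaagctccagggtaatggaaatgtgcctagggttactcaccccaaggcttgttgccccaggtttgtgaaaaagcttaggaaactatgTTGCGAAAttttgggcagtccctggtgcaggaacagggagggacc
GAGGAA, TTCNNNGAA, the ISRE-like motif and the NF-kB consensus do not occur in these 250 bases.

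The gene of factor B, a protease of the alternative pathway, had the smallest log2 fold change of the 9 genes and was, with *C3*, 1 of the 2 that overlapped. *Cfb* was 41.87, 49.78 and 75.56 FPKM in the OP mice and 78.8, 50.4 and 51.14 FPKM in the OR mice. OP mouse 3 and OR mouse 1 were high and the other 4 mice were within 41.87 to 51.14 FPKM, without regard to the group. The log2 fold change was -0.12 (standard error 0.26, 95% confidence interval -0.73 to 0.49, q = 0.957, limma-trend), and a two-sided exact permutation test gave p = 0.5. Its direction was not stable, since it was 0.02 after median-of-ratios scaling, 0.06 without OP mouse 1 and 0.09 without OR mouse 1. *Cfb* was the most highly expressed of the 9 genes and the only one above *C1qa* in each of the 6 mice. It made up 33.0%, 44.0% and 34.0% of the summed FPKM of the 9 genes in OP mice 1 to 3 and 31.7%, 20.3% and 20.3% in OR mice 1 to 3. The ratio of *Cfb* to the summed C1q chains was 1.07, 1.81 and 0.990 in OP mice 1 to 3 and 0.964, 0.469 and 0.555 in OR mice 1 to 3, without overlap but with OP mouse 3 and OR mouse 1 nearly equal.

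In order of the mean over the 6 mice, the levels were 57.9 FPKM for *Cfb*, 27.4 for *C1qa*, 25.1 for *Serping1*, 22.4 for *C1qb*, 20.9 for *C1qc*, 17.2 for *C3*, 15.3 for *C1s1*, 8.40 for *C4b* and 7.15 for *C1ra*. Only *Cfb* over *C1qa* and *C1s1* over *C4b* held in all 6 mice between neighbours in this order. *C1qa* exceeded *Serping1* in 4 mice, and *C1qc* exceeded *C3* and *C3* exceeded *C1s1* in 3 mice each, so those neighbours cannot be ordered beyond their spread.

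**Figure D2:**
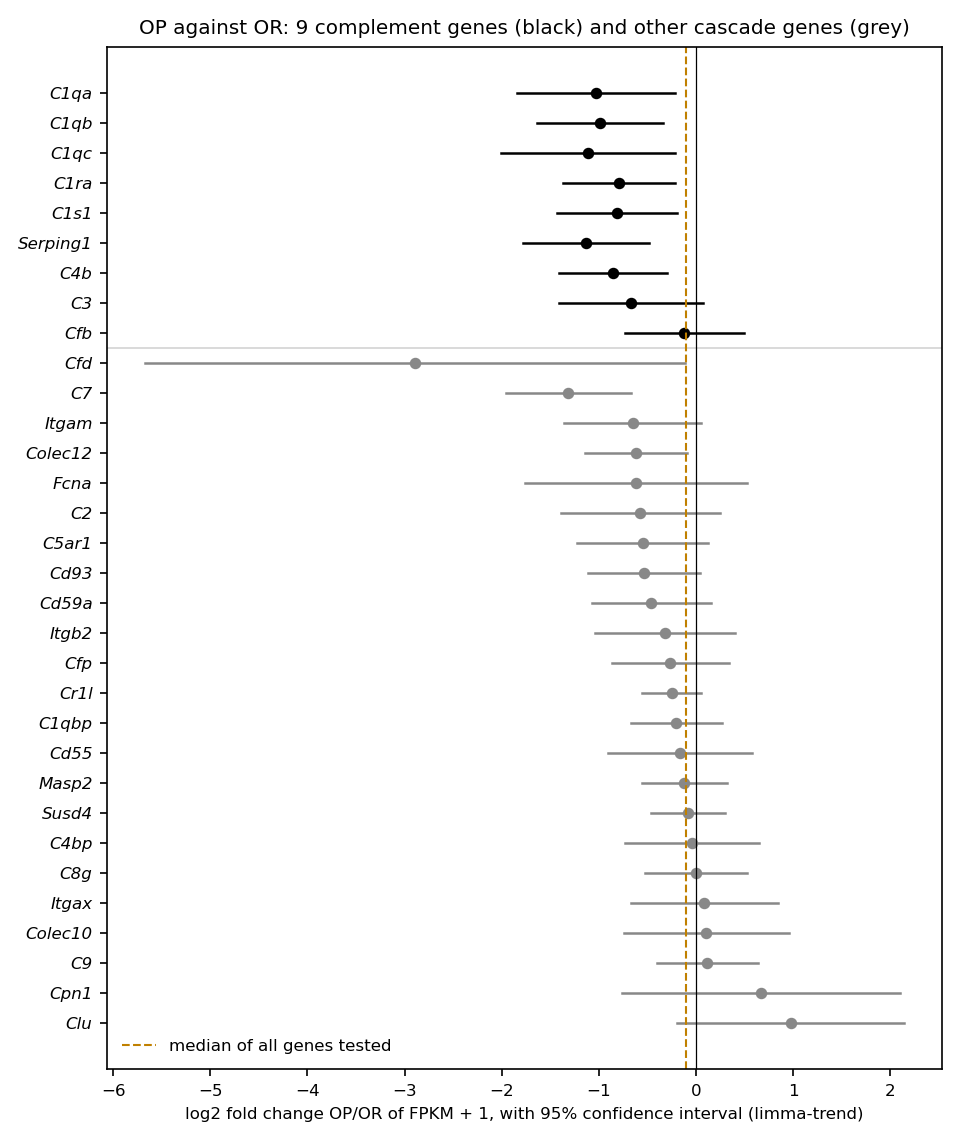
Log2 fold change OP/OR of FPKM + 1 (x axis) with its 95% confidence interval from limma-trend for the 9 complement genes in black and the 23 other tested cascade genes in grey, with the median of all genes tested as a dashed line at -0.10. The intervals of 7 of the 9 genes lie below 0, those of *C3* and *Cfb* include it, and *Cfd* has the widest interval.

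The mice differed within the groups in a way that most of the genes shared. OP mouse 3 was the highest OP mouse in all 9 genes. Over all genes tested, the mean deviation from the 6-mouse mean (log2 scale) was also highest in it, at 0.09 against -0.24 and -0.03 in OP mice 1 and 2. The share of all genes with their highest OP value in OP mouse 3 was not computed. The lowest of the 6 mice was OP mouse 2 in 6 genes and OP mouse 1 in 3 genes. The highest was an OR mouse in all 9, namely mouse 1 in 2 genes, mouse 2 in 3 and mouse 3 in 4. In the 7 genes without overlap, a lowest value in an OP mouse and a highest in an OR mouse follow from the separation. Centred on their 6-mouse mean on the log2 scale, the C1q chains averaged -0.67, -1.14 and 0.25 in OP mice 1 to 3 and 0.35, 0.70 and 0.51 in OR mice 1 to 3. The corresponding values for *C1ra*, *C1s1* and *Serping1* together were -0.63, -0.77 and 0.03 and then 0.19, 0.40 and 0.78. OR mouse 2 was thus the highest for the C1q chains and OR mouse 3 for the protease and inhibitor genes.

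**Figure D3:**
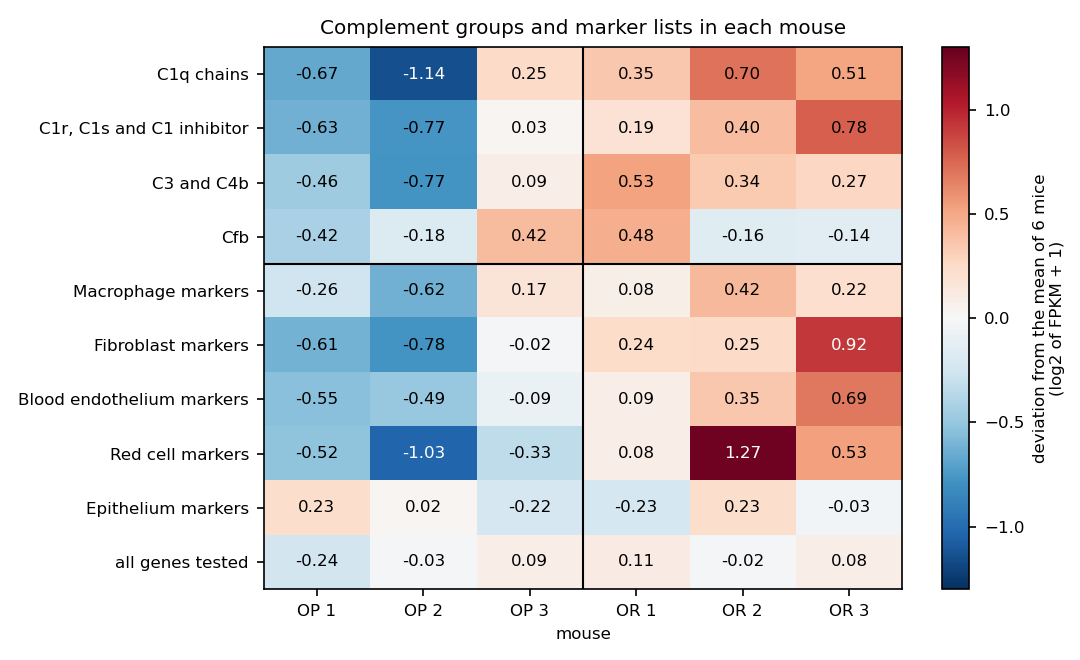
Mean deviation of each group of genes from the mean of the 6 mice (log2 of FPKM + 1, color scale and printed values) for 4 complement groups above the line and marker lists and all genes tested below it, with OP mice left and OR mice right of the vertical line. The C1q chains range from -1.14 in OP mouse 2 to 0.70 in OR mouse 2, and the fibroblast and blood endothelium markers also have negative values in the 3 OP mice and positive values in the OR mice.

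Markers of several cell types moved with these genes, and their part in the result was not tested. Of all genes tested, 70.1% had a negative log2 fold change and 3.53% were lower in OP mice at an unadjusted p below 0.05 (limma-trend). All 12 macrophage markers were tested, 10 had a negative log2 fold change and 7 were lower in OP mice at that threshold. Their summed level was 108 to 257 FPKM in the OP mice and 161 to 207 FPKM in the OR mice, and the sum is dominated by *Lyz2*, *Mertk* and *Cd14*, which were not lower in OP mice at that threshold. The receptor *Mertk* had a higher mean in OP mice with overlap, at 48.04, 24.29 and 41.72 FPKM in the OP mice and 32.85, 29.14 and 21.78 FPKM in the OR mice (log2 fold change 0.40). *Cd14* and *Lyz2* also overlapped, with log2 fold changes of 0.13 and -0.10. In contrast, the scavenger receptor *Cd163* was 0.44, 0.22 and 0.77 FPKM in the OP mice and 1.72, 2.45 and 1.67 FPKM in the OR mice. *Csf1r*, the receptor for macrophage colony-stimulating factor, was 2.8, 2.14 and 5.96 FPKM and then 5.75, 7.87 and 6.61 FPKM, with OP mouse 3 above OR mouse 1. The summed C1q chains were 14.0, 12.9 and 12.8 times *Csf1r* in OP mice 1 to 3 and 14.2, 13.6 and 13.9 times in OR mice 1 to 3. This ratio spanned 12.8 to 14.2 over mice whose C1q level spanned 27.6 to 107 FPKM, and it overlapped between the groups. The ratio was chosen after the values had been seen. Among 12424 other genes, *Csf1r* ranked 2 in likeness to the C1q chains over the 6 mice, so a steady ratio follows from that choice. Ratios of C1q to other single macrophage markers, such as *Cd163*, were not computed, and whether C1q followed macrophage content was not tested. Over the whole macrophage list the ratio of C1q was 0.212 to 0.296 in the OP mice and 0.507 to 0.527 in the OR mice, so the outcome differed with the markers used.

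Stromal and vascular markers were lower in OP mice as well, and their counts are read beside the 3.53% of all genes tested that were lower at p below 0.05 (limma-trend). All 12 fibroblast markers had a negative log2 fold change, 7 of them at p below 0.05 (limma-trend), and they summed to 110 to 198 FPKM in the OP mice and 281 to 542 FPKM in the OR mice. *Col1a1*, *Col3a1*, *Lum* and *Fbln1* in that list belong to the genes the study picked from these same libraries. *C1ra*, *C1s1* and *Serping1* together were 0.193 to 0.224 of the fibroblast sum in the OP mice and 0.146 to 0.205 in the OR mice, with overlap. All 8 blood endothelium markers were negative, 7 of them at p below 0.05, with sums of 14.3 to 22.4 and 26.4 to 43.0 FPKM. The ratio of *Serping1* to the endothelial marker *Pecam1* was 2.58 to 3.30 in the OP mice and 3.63 to 3.64 in the OR mice, without overlap. Its ratio to the fibroblast marker *Col1a2* was 1.24 to 1.57 and 1.44 to 1.88, and to *Col6a1* 0.809 to 1.2 and 0.922 to 1.33, both with overlap. These are among the 15 ratios chosen after the values had been seen, and they were not tested. Of 5 red cell genes, 4 were tested and all 4 were lower at p below 0.05, with sums of 23.0 to 39.7 and 54.6 to 125 FPKM. Smooth muscle markers were negative in 8 of 8 genes with 0 at p below 0.05 (limma-trend), where 70.1% of all genes tested were negative. Epithelial markers were negative in 3 of 10 genes with 0 at p below 0.05, and their sums overlapped at 14546 to 27914 FPKM in OP and 15359 to 28549 FPKM in OR mice. Much of the spread of these sums came from *Car1*, which was 1054 FPKM in OP mouse 2 and 15723 FPKM in OR mouse 2.

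Liver is the main source of plasma C3, factor B and C1 inhibitor, and its markers were looked at for that reason. Of 8 hepatocyte markers, 6 were listed and 4 tested, of which 1, *Trf*, was lower in OP mice at p below 0.05 (limma-trend), beside 3.53% of all genes tested. The 6 summed to 13.7 to 18.9 FPKM in the OP mice and 21.3 to 30.4 FPKM in the OR mice, and the lower OP sum rests on *Trf*. *Ttr*, *Apoa2* and *Ambp* had positive log2 fold changes of 0.23, 0.51 and 0.27, with overlap. *Alb*, which encodes albumin, was between 0.07 and 0.72 FPKM, and *Ahsg*, which encodes fetuin-A, was at most 0.12 FPKM and listed at 0 in the 3 OR mice. *Ttr*, the transthyretin gene, was 2.31 to 9.03 FPKM in the OP mice and 2.11 to 7.12 FPKM in the OR mice. *Trf*, the transferrin gene, which other cells also express, was 2.18 to 9.62 FPKM in the OP mice and 11.34 to 25.36 FPKM in the OR mice. Of 7 neutrophil markers, 6 were listed and 2 tested, with 0 at p below 0.05, *Mpo* was listed at 0 in 5 of the 6 mice, and *Ly6g* was 12.54 FPKM in OP mouse 2 and at most 0.65 FPKM in the others. The part of these markers in the complement values was not tested.

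**Figure D4:**
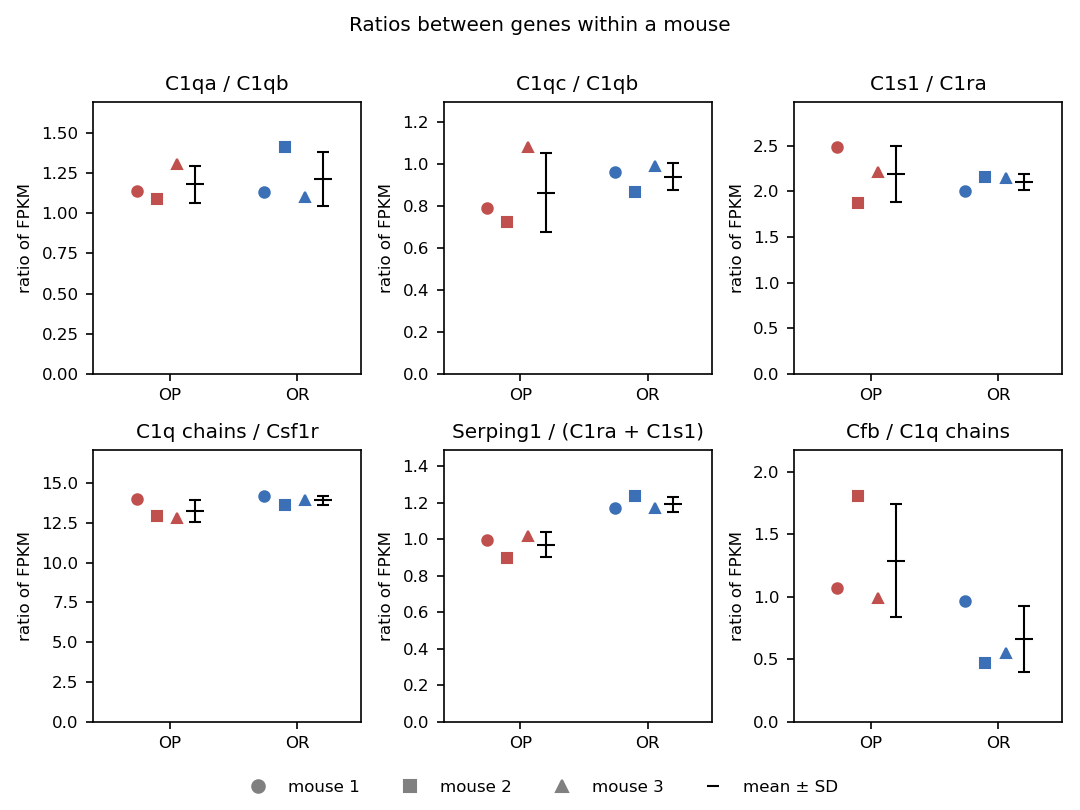
Ratios of FPKM within each mouse (y axis, from 0), with OP mice in red, OR mice in blue, symbols for the mouse number and a bar for the mean ± SD of 3 mice. Ratios between the C1q chains, between *C1s1* and *C1ra* and of C1q to *Csf1r* overlap between the groups, while *Serping1* over its target proteases is 0.896 to 1.02 in OP and 1.17 to 1.24 in OR mice.

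Other genes of the cascade, its receptors and its regulators were examined as a list of 50, of which 44 were in the file and 23 passed the filter. Of the 23, 3 (13.0%) were lower in OP mice at an unadjusted p below 0.05 and 0 were higher (limma-trend), and 2 (8.70%) were lower without overlap, beside 3.53% and 6.81% of all genes tested. Their median log2 fold change was -0.25, and 0 passed a q-value below 0.2. The 3 genes were *C7*, *Colec12* and *Cfd*. The count was 7 without OP mouse 3, 1 without OR mouse 1 and 1 without OR mouse 3.

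*C7*, a component of the membrane pore, was 0.45, 0.22 and 0.54 FPKM in the OP mice and 1.37, 2.65 and 3.82 FPKM in the OR mice. All OR mice were above all OP mice, and the log2 fold change was -1.31 (standard error 0.28, q = 0.693, limma-trend), which understates the 6.48 times higher OR mean because of the pseudocount. *C6*, which precedes C7 in the pore, did not pass the filter, with 0.06, 0.03 and 0.08 FPKM in the OP mice and 0.37, 0.36 and 0.28 FPKM in the OR mice. The later pore genes *C8g* and *C9* were tested and overlapped, with log2 fold changes of 0.00 and 0.12, and *C8b* was at most 0.04 FPKM.

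*Cfd* encodes factor D, also called adipsin, which cleaves factor B and is abundant in adipocytes. It was 13.26, 0 and 12.86 FPKM in the OP mice and 132.45, 11.93 and 45.86 FPKM in the OR mice. OR mouse 1 was by far the highest, OP mouse 2 was listed at 0 and OR mouse 2 was below OP mice 1 and 3. The log2 fold change of -2.89 had a standard error of 1.19 (q = 0.945, limma-trend), and a two-sided exact permutation test gave p = 0.3. It was -1.62 without OP mouse 2, and *Cfd* no longer passed the unadjusted threshold without OP mouse 2, OR mouse 1 or OR mouse 3, with a pseudocount of 0.1, with no filter or after median-of-ratios scaling. The adipocyte marker *Adipoq* also had its highest value in OR mouse 1 and was listed at 0 in OP mouse 2, with 6.61, 0 and 6.99 FPKM in the OP mice and 18.48, 2.81 and 10.45 FPKM in the OR mice. The summed level of the 8 adipocyte markers was 30.2 to 147 FPKM in the OP mice and 79.5 to 267 FPKM in the OR mice, with *Plin1*, *Lep* and *Retn* also listed at 0 in OP mouse 2, and its part in the *Cfd* values was not tested.

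*Colec12*, a collectin scavenger receptor, was 1.48, 2.64 and 2.89 FPKM in the OP mice and 4.44, 3.58 and 4.09 FPKM in the OR mice, without overlap (log2 fold change -0.62, standard error 0.23, q = 0.945, limma-trend). *Colec12* no longer passed the unadjusted threshold without OR mouse 1, without OR mouse 3 or with a block for the replicate number. Below the filter, *Vtn*, *Cd59b*, *C3ar1* and *Vsig4* were also lower in all OP mice than in all OR mice. With *C6* these were 5 of the 21 genes of the list below the filter. The share among all genes below the filter was not computed, so this count has no background to be read against. *Vtn*, which encodes vitronectin, was 0.13 to 0.24 FPKM in the OP mice and 0.34 to 0.89 FPKM in the OR mice. The macrophage complement receptor *Vsig4* was listed at 0 in all 3 OP mice and was 0.05, 0.16 and 0.17 FPKM in the OR mice. *C3ar1*, the C3a receptor, was 0.18 to 0.45 FPKM in the OP mice and 0.47 to 1.02 FPKM in the OR mice.

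Apart from *Clu*, the regulators, binding proteins and properdin with a mean of at least 5 FPKM overlapped between the groups. *Cr1l*, which encodes the rodent inhibitor Crry, was 48.02, 53.09 and 58.35 FPKM in the OP mice and 65.13, 57.53 and 67.45 FPKM in the OR mice. These groups overlapped in 1 pair of mice, with a log2 fold change of -0.25 (standard error 0.13, q = 0.945, limma-trend). *Cd55*, the decay-accelerating factor, was 14.38 to 20.9 FPKM in the OP mice and 12.61 to 31.65 FPKM in the OR mice, and its direction turned without OR mouse 1. *Cd59a*, which blocks the pore, was 3.95 to 5.77 FPKM in the OP mice and 4.53 to 8.56 FPKM in the OR mice. *C1qbp*, a mitochondrial protein that can bind C1q, was 46.15 to 74.41 and 66.46 to 78.39 FPKM. Properdin (*Cfp*), which stabilises the alternative C3-cleaving enzyme, was 2.86 to 6.26 and 5.39 to 5.84 FPKM, and *Cpn1*, a carboxypeptidase that inactivates the released peptides, was 18.44 to 77.07 and 12.45 to 38.82 FPKM.

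Higher values in all OP mice than in any OR mouse were found for *Clu*, 1 of the 23 genes tested, where 1.63% of all genes tested were higher without overlap. The same held for *Cr2*, 1 of the 21 genes below the filter, where no share over all genes was computed. *Clu*, which encodes clusterin, an inhibitor of pore assembly and an extracellular chaperone, was 17.53, 16.46 and 66 FPKM in the OP mice and 16.35, 10.52 and 13.24 FPKM in the OR mice. Its OP mean rested on OP mouse 3, and OP mouse 2 was only just above OR mouse 1. The log2 fold change was 0.98 (standard error 0.50, q = 0.945, limma-trend) and was 0.34 without OP mouse 3. *Cr2*, the complement receptor of B cells and follicular dendritic cells, was 0.28, 0.29 and 2.54 FPKM in the OP mice and 0.22, 0.06 and 0.07 FPKM in the OR mice. In OP mouse 3 the 6 B cell markers summed to 76.25 FPKM, against 5.78 to 10.8 FPKM in the other mice, and their part in the *Clu* and *Cr2* values was not tested.

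**Figure D5:**
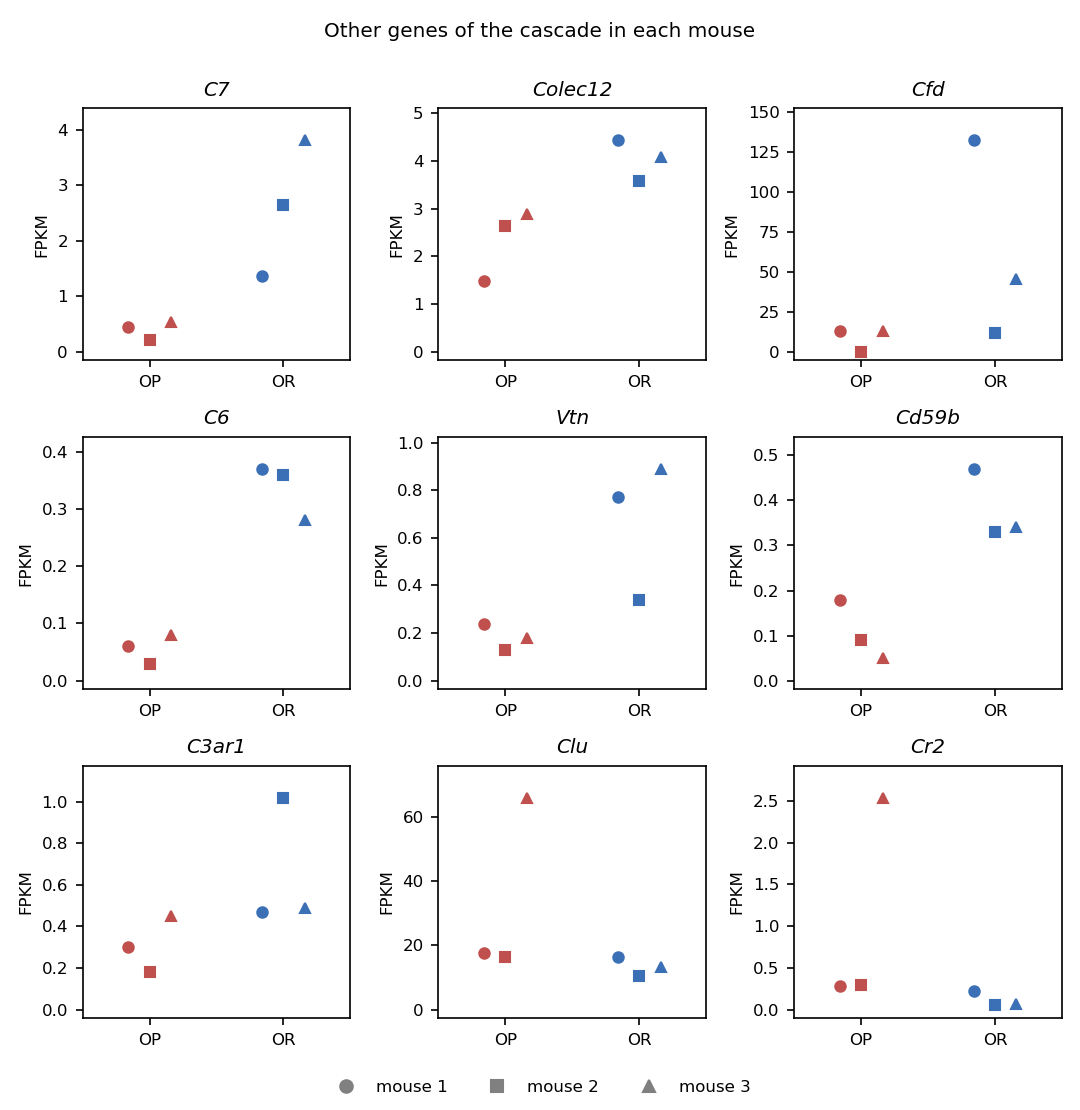
FPKM of 9 other genes of the cascade in each mouse (y axis, FPKM), with OP mice in red, OR mice in blue and symbols for the mouse number. *C7*, *Colec12*, *C6*, *Vtn*, *Cd59b* and *C3ar1* are lower in all OP mice, *Cfd* spans 0 to 132.45 FPKM, and OP mouse 3 stands out in *Clu* and *Cr2*.

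The genes most like each complement group over the 6 mice were taken from 12424 other genes with a mean of at least 1 FPKM, by the root mean square difference of mean-centred log2(FPKM + 1). For the C1q chains, whose own root mean square deviation was 0.67, these were *Cd300lg* at 0.07 and *Csf1r* and *Apoe* at 0.13 each, where the median gene differed by 0.65. *Apoe* encodes apolipoprotein E and was 107.64, 77.88 and 220.49 FPKM in the OP mice and 229.73, 233.19 and 217.6 FPKM in the OR mice. As in *C1qa*, OP mouse 3 was at the level of the OR mice and OP mice 1 and 2 were well below.

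For *C1ra*, *C1s1* and *Serping1* the most similar genes were *Podxl* at 0.03, *Tmem204* at 0.05 and *Eng* at 0.07, where the median gene differed by 0.53. *Podxl*, which encodes podocalyxin, was 1.71, 1.4 and 3.07 FPKM in the OP mice and 3.62, 4.28 and 5.67 FPKM in the OR mice. For *C3* and *C4b* they were *Rarres2*, which encodes chemerin, and *Cmklr1*, a chemerin receptor, both at 0.09, and *Dab1* at 0.10. *Rarres2* was 38.75, 29.07 and 61.11 FPKM in the OP mice and 71.5, 72.72 and 70.43 FPKM in the OR mice, with OP mouse 3 the nearest to the OR mice once more. For *Cfb* they were *Ltk* at 0.03 and *Vwa5b2* and *Usp11* at 0.05 each, all with high values in OP mouse 3 and OR mouse 1. These genes were chosen for their likeness, which is a description of 6 mice and was not tested.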

How the data were processed

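Colon RNA of 3 OP and 3 OR mice was analysed. Values were deposited by the authors as FPKM with 2 decimals, after they filtered the reads with SOAPnuke, aligned them with Bowtie2 to a mouse gene set and quantified genes with RSEM. The methods and the labels differ in tool versions and in the gene set, and the labels also name HISAT2. Genes with at least 0.5 FPKM in at least 3 mice (13520 of 17778) were compared on log2(FPKM + 1) by limma-trend with no covariate (R 4.3.3, limma 3.58.1), a step tested on simulated data. Fold changes on this scale understate those of low genes. Because the values are FPKM, the planned count test did not apply. Means of a gene were compared by a two-sided exact permutation test over 20 arrangements. Levels and ratios use FPKM as deposited. The genes, lists and motifs were chosen with earlier results of these data known, and the within-mouse ratios after their values had been seen. Other cascade genes are named at an unadjusted p below 0.05, without overlap between groups, or at a mean of at least 5 FPKM. Of that list, 1 gene is not reported here and is left out of its counts. Alternatives were limma without trend, median-of-ratios and TPM scaling, a pseudocount of 0.1, other filters, sample weights, a block for the replicate number and each mouse left out.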

Additional observations from a re-analysis of the deposited data

How the results depend on the processing

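DESeq2 needs counts and was not run. The median log2 fold change of the 9 complement genes was below 0 under all 14 alternatives, from -1.08 to -0.72, and was -0.73 after median-of-ratios scaling, which moved the median of all genes from -0.10 to 0.01. The count of 7 complement genes lower at p below 0.05 ranged from 4 to 8 with a mouse left out and was 7 or 8 under the others. The log2 fold change of *Cfb* turned to 0.0165 with median-of-ratios scaling, to 0.0602 without OP replicate 1 and to 0.0882 without OR replicate 1 (range with a mouse left out -0.358 to 0.0882). That of *C1qbp* turned to 0.0218 without OP replicate 1 (range -0.317 to 0.0218) and that of *Cd55* to 0.144 without OR replicate 1 (range -0.488 to 0.144). The other cascade genes lower at p below 0.05, 3 in number, were 6 with no filter beyond a value above 0, 1 with at least 1 FPKM in all 6 mice, 6 with sample weights and from 1 to 7 with a mouse left out. Those higher were 0, but 1, *Clu*, with median-of-ratios scaling, and from 0 to 1 with a mouse left out. The cause was not tested.

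Over all genes, 3 were lower at a q-value below 0.2. There were 0 with median-of-ratios scaling, TPM, a pseudocount of 0.1 or either other filter, 5 with sample weights, and from 0 to 1 with a mouse left out. At an unadjusted p below 0.05, 477 genes were lower and 68 higher (87.5% lower), against 423 and 153 (73.4% lower) with median-of-ratios scaling, 656 and 133 with no filter, 317 and 61 with the stricter filter, 656 and 146 with sample weights, and from 223 to 1094 lower and 24 to 178 higher with a mouse left out. With the replicate block 8 complement genes were lower, *C3* being added, with 2 other cascade genes lower, 1 higher and 0 genes lower at a q-value below 0.2. Same-numbered mice correlated at -0.144, -0.157 and 0.0709 in their deviations, and mice with different numbers at -0.464 to 0.537. No pairing by number was visible, but deviations from means of 3 mice cannot exclude it. The unknown depth limits what can be said of genes below 1 FPKM.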
